A study of Mus musculus with 4 samples.

Results

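The enzymes of the main glycolytic chain of muscle were followed step by step, from the hexose phosphates to pyruvate, in gastrocnemius muscle that overexpresses the nuclear receptor PPARbeta and in muscle of non-transgenic littermates. The chain was taken as 10 genes: Gpi1, Pfkm, Aldoa, Tpi1, Gapdh, Pgk1, Pgam2, Eno3, Pkm and, for the reverse of the committed step, Fbp2. A probe set counted for a gene when its annotation gave that 1 symbol, control probe sets were left out, and the probe set of highest mean log2 signal represented the gene. By this rule 8 of the 10 genes were measured, by 15 of 22626 probe sets, out of 12393 genes named on the array. No probe set in the annotation table used here carried Gpi1. Gapdh was carried by 3 control probe sets and by 2 probe sets that also named other genes, so no value of either gene entered the comparison.

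Glycolysis splits a hexose into 2 molecules of pyruvate in the cytosol, yielding ATP without oxygen, and fast muscle fibres hold very large amounts of its enzymes. Most steps run near equilibrium, whereas phosphofructokinase and pyruvate kinase run forward and are regulated. PPARbeta, encoded by Ppard, is a fatty acid-sensing transcription factor known in muscle for driving the use of fat as fuel.

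RNA of 2 non-transgenic (wild-type littermate) and 2 MCK-PPARb mice, all 6 weeks of age, had been hybridised to 1-colour Affymetrix arrays. The overexpression is muscle-specific per the labels. MCK is the usual short name of muscle creatine kinase, whose promoter is widely used to express transgenes in skeletal and cardiac muscle, and no source used here names the strain or founder line. Arrays of a group are labelled as biological replicates, while the design text leaves room for arrays that share mice, and p-values would then measure a spread that may be technical. Values are signal intensities in arbitrary units on a linear scale, and the number of arrays limits the precision.

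The arrays carried the labelled transgene: Ppard read 2169 and 2825 without the transgene against 126049 and 98796 with it. Defining genes of skeletal muscle (Ckm and Acta1, expressed in all its fibres, and Tnnt3, Atp2a1 and Mylpf, of fast fibres) read from 113926 to 284838 on the 4 arrays. Non-transgenic replicate 1 stood apart among bright probe sets, with 4.20% of all signal in the 10 brightest, against 2.36% to 2.78% elsewhere. Of the measured chain genes, 7 had mean signals of 80291 to 145323, so differences of the chain genes are also given without that array. The control probe sets of Gapdh showed the same array standing apart, with the 5-prime set at 243580 there, at 115277 on the other non-transgenic array and at 145963 and 127115 on the MCK-PPARb pair. Their ratio of 3-prime to 5-prime signal was alike on all 4 arrays, from 0.818 to 0.861.

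The promoters of 3 chain genes are shown: Pgk1 had the lowest difference in MCK-PPARb muscle, Fbp2 the only one above 0, and Pgam2, whose groups also did not overlap, was the 1 chain gene with a MEF2 match. All 10 chain genes matched RefSeq promoter windows of build GRCm38.p6, which span 250 bases before to 50 bases after a transcription start, with 16 windows in all since some genes have several starts. The windows shown are chrX:106186850-106187149 on the plus strand for Pgk1, chr11:5803747-5804046 on the minus strand for Pgam2 and chr13:62858351-62858650 on the minus strand for Fbp2, each written 5′ to 3′ in the direction of the gene. Capitals mark ACGTG on either strand, the core of the hypoxia response element, and the MEF2 consensus, the site of a muscle transcription factor family.
Pgk1: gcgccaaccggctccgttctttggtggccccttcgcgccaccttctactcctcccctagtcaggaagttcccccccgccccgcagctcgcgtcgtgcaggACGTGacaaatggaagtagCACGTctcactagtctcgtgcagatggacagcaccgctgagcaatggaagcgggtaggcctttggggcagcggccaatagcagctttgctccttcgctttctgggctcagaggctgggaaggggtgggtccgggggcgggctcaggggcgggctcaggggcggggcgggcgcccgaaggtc
Pgam2: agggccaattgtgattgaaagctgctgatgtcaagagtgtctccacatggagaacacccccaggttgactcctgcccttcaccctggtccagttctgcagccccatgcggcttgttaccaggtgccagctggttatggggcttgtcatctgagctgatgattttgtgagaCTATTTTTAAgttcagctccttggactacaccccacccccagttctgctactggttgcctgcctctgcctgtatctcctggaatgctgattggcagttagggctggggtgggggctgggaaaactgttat
Fbp2: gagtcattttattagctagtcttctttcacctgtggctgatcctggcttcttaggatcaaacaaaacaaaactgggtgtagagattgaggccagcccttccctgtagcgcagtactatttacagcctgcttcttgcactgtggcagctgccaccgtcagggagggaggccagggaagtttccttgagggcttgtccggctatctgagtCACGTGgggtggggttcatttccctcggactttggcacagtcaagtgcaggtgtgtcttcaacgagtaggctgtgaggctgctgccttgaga
The window of Pgk1 held ACGTG 2 times, starting 150 and 131 bases before the transcription start and on opposite strands. In the window of Fbp2 both matches came from a single palindrome, CACGTG, which reads as ACGTG on each strand and is also a form of the E-box CANNTG. The window of Pgam2 had no ACGTG and held 1 MEF2 consensus, 80 bases before the start. Over the chain, 6 of the 10 genes had ACGTG in at least 1 window (Pfkm, Aldoa, Gapdh, Pgk1, Pkm and Fbp2) and 8 of 16 windows held it, against 19.6% of all 32851 promoter windows. CANNTG was present in 13 of 16 windows and in 72.3% of all. The MEF2 consensus was present in 1 of 16 and in 3.19% of all. AGGTCA, the core motif of many nuclear receptors, occurred in 6 of 16 windows and in 16.3% of all. These are matches of letters in short windows, some of which overlap, and no binding was measured.

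None of the 8 measured chain genes passed the test between MCK-PPARb and non-transgenic muscle, 7 of the 8 had a lower mean in MCK-PPARb muscle, and the median log2 difference was -0.29. Without non-transgenic replicate 1, 4 of the 8 were lower, against 47.1% of all genes, and the median was 0.0090. Without non-transgenic replicate 2, 7 of the 8 were lower, against 50.9%, and the median was -0.66. The background in the fit of all 4 arrays was 0.731% of genes called (50 of 6841, limma adjusted p under 0.05), 0.322% lower and 0.409% higher. In that fit 48.8% of genes were below 0, and the median over all genes was 0.011. All 8 lay above the filter on low signals, which was set at 444 units on the mean of all 4 arrays. With limma, 1 of the 8 had an unadjusted p under 0.05 (Pgk1), against 10.9% of all genes. The adjusted p of the 8 genes ran from 0.461 for Pgk1 to 0.939 for Eno3. Both MCK-PPARb arrays lay below both non-transgenic arrays for 3 of the 8 (Pgk1, Pgam2 and Pkm) and above them for 0, where 20.8% of all genes did not overlap in the lower direction and 22.2% in the higher. An exact permutation test of 1 gene with 2 arrays against 2 cannot go below p = 0.333, so each p given relies on limma's pooling of the spread across genes.

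**Figure D1:**
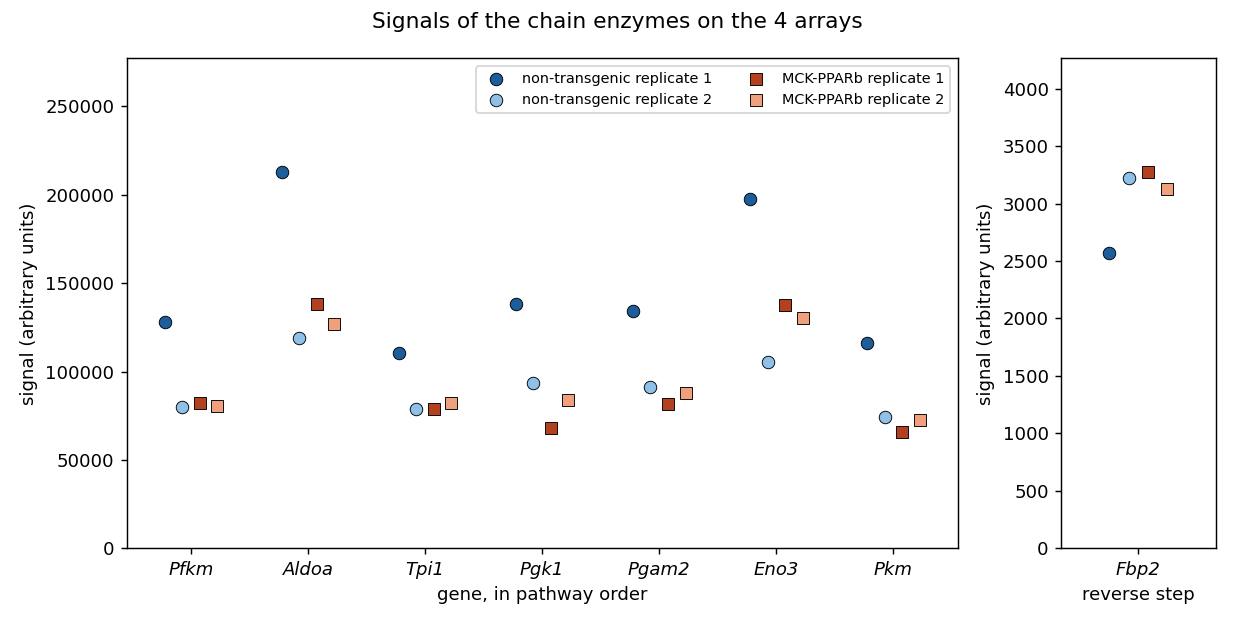
Signals of the 8 measured chain genes (y axes, signal units, starting at 0; Fbp2 on an axis of its own) on each of the 4 arrays (circles non-transgenic, squares MCK-PPARb). Non-transgenic replicate 1 is the highest array for 7 genes and the lowest for Fbp2.

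Pfkm encodes the muscle form of phosphofructokinase, which commits fructose 6-phosphate to glycolysis. Its signal was 128003 and 79771 without the transgene against 82138 and 80378 with it. Non-transgenic replicate 2 and both MCK-PPARb arrays were nearly level, and only non-transgenic replicate 1 stood above them. The log2 difference was -0.31 ± 0.26 (SE, n = 2 per group, limma adjusted p = 0.729), with a 95% interval of -0.91 to 0.28. Without non-transgenic replicate 1 it was 0.027.

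Aldoa encodes the aldolase of muscle, which splits fructose 1,6-bisphosphate into 2 trioses. Its representing probe set read 213188 and 119086 without the transgene against 138461 and 126874 with it, so both MCK-PPARb arrays fell between the non-transgenic ones. The difference was -0.27 ± 0.29 (adjusted p = 0.813), with an interval of -0.95 to 0.42. The other 3 probe sets of Aldoa gave -0.25, -0.14 and -0.25, each with non-transgenic replicate 1 as the highest array and replicate 2 as the lowest. All 4 Aldoa probe sets carry the suffix _x_at, which marks probes that may also bind related sequences. The sign turned with quantile normalization (0.044) and without non-transgenic replicate 1 (0.15), while without non-transgenic replicate 2 the difference was -0.80 and passed (adjusted p = 0.0440).

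Tpi1 encodes triose-phosphate isomerase, which converts one triose into the other. It read 110703 and 78579 in controls against 78873 and 82366 in MCK-PPARb muscle, again with 3 arrays level and non-transgenic replicate 1 higher. The difference was -0.21 ± 0.22 (adjusted p = 0.806, interval -0.74 to 0.31), and 0.037 without non-transgenic replicate 1. A second probe set read 98526 and 79921 against 72220 and 77648, without overlap (-0.24, adjusted p = 0.731). The dimmest Tpi1 probe set read 50861 and 57109 against 42840 and 57110, where replicate 2 of either group was the brighter (-0.12, adjusted p = 0.891).

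Pgk1 encodes phosphoglycerate kinase, the first ATP-yielding step. It had the lowest difference of the 8 genes, and in all 3 of its probe sets both MCK-PPARb arrays lay below both non-transgenic arrays. Of all genes, 20.8% had that order in their representing probe set, and the share of all probe sets was not counted. The 3 probe sets were read on the same arrays, so they are not independent evidence. The representing probe set read 138430 and 93613 in controls against 68206 and 83668 in MCK-PPARb muscle (-0.59 ± 0.25, adjusted p = 0.461, interval -1.17 to -0.013). The probe set of middle brightness, the 1 of the 3 that lacks the suffix _x_at, read 79114 and 69633 against 40956 and 43019. Here the non-transgenic arrays lay close together and far above the MCK-PPARb arrays, a 1.77-fold lower level (log2 -0.82 ± 0.18, interval -1.25 to -0.39) that did not pass (adjusted p = 0.138; 0.601% of all probe sets tested were called). The dimmest Pgk1 probe set read 5776 and 11899 against 4206 and 4404 (-0.95 ± 0.33, adjusted p = 0.345), with non-transgenic replicate 2 as the brightest array. Its order of the non-transgenic arrays was thus the reverse of that in the other 2 probe sets.

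The difference of Pgk1 was below 0 in all 17 alternatives run, from -0.87 to -0.31. It passed for the representing probe set in 1 of them, without non-transgenic replicate 2 (-0.87, adjusted p = 0.0477). The probe set of middle brightness was at -0.93 to -0.73 over the 16 alternatives that give it a value. It passed in 4 of these: quantile normalization (-0.82, adjusted p = 0.0294), quantile normalization without non-transgenic replicate 1 (-0.80, adjusted p = 0.0379), no non-transgenic replicate 2 (-0.91, adjusted p = 0.0330) and a replicate block (adjusted p = 0.0491). Its adjusted p ran from 0.0294 to 0.721 over all settings. Without non-transgenic replicate 1, on deposited signals, the representing probe set was at -0.31 (adjusted p = 0.560) and that of middle brightness at -0.73 (adjusted p = 0.0955). This probe set was picked out after its values were seen, and it does not represent the gene under the rule.

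**Figure D2:**
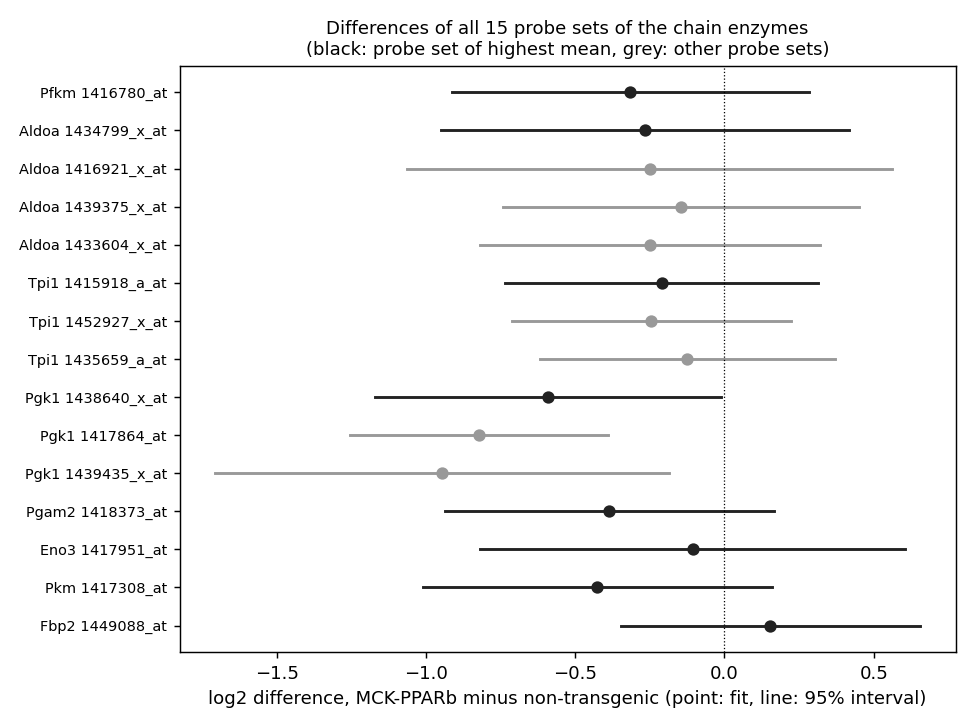
Log2 differences (x axis, MCK-PPARb minus non-transgenic) of all 15 probe sets of the chain genes, with points for the fitted difference and lines for its 95% interval. Of the 15 points 14 lie below 0, where 48.3% of all probe sets tested do, and only the 3 intervals of Pgk1 leave out 0. Without non-transgenic replicate 1, 8 of the 15 differences were below 0, against 47.3% of all probe sets tested. Without non-transgenic replicate 2, 14 of the 15 were, against 50.5%.

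Pgam2 encodes the muscle subunit of phosphoglycerate mutase. It read 134022 and 91409 without the transgene against 81605 and 87989 with it. The groups did not overlap, but non-transgenic replicate 2 lay close to MCK-PPARb replicate 2. The difference was -0.39 ± 0.24 (adjusted p = 0.623, interval -0.94 to 0.17), and -0.11 without non-transgenic replicate 1.

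Eno3 encodes beta-enolase, the muscle form of the enzyme that makes phosphoenolpyruvate. It read 197685 and 105203 in controls against 137485 and 130521 in MCK-PPARb muscle, with the MCK-PPARb arrays between the others. The difference was the nearest to 0 of the 8 genes, at -0.11 ± 0.30 (adjusted p = 0.939), and its interval of -0.82 to 0.61 was the widest. The sign turned with quantile normalization (0.20) and without non-transgenic replicate 1 (0.35).

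Pkm encodes pyruvate kinase of muscle, the last step of the chain. It read 116278 and 74488 without the transgene against 65874 and 72835 with it, without overlap between groups. Non-transgenic replicate 2 exceeded MCK-PPARb replicate 2 by little. The difference was -0.43 ± 0.25 (adjusted p = 0.608, interval -1.01 to 0.16), -0.32 with quantile normalization and -0.10 without non-transgenic replicate 1.

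Fbp2 encodes the muscle fructose 1,6-bisphosphatase, which runs the phosphofructokinase step backwards. It was the 1 measured gene with a difference above 0, read 2570 and 3220 in controls against 3279 and 3126 in MCK-PPARb muscle, and overlapped between groups. Non-transgenic replicate 1 was its lowest array, where it was the highest for each of the other 7 genes. The difference was 0.15 ± 0.21 (adjusted p = 0.862, interval -0.35 to 0.66) and -0.0085 without that array.

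By position in the pathway, the 3 measured genes before the triose split is complete (Pfkm, Aldoa and Tpi1) had a median difference of -0.27 on the log2 scale, and the 4 measured genes of the lower chain (Pgk1, Pgam2, Eno3 and Pkm) of -0.41. Without non-transgenic replicate 1 the medians were 0.037 and -0.11, and without non-transgenic replicate 2 they were -0.66 and -0.70. They were not compared with a test. The lower bounds of the 8 intervals ran from -1.17 (Pgk1) to -0.35 (Fbp2) and the upper bounds from -0.013 (Pgk1) to 0.66 (Fbp2). A p that misses the threshold therefore does not show that these genes were unchanged.

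For 7 of the 8 genes, all but Pgk1, the 2 non-transgenic arrays lay further apart on the log2 scale than the group means did. Non-transgenic replicate 1 exceeded replicate 2 by 1.41-fold (Tpi1) to 1.88-fold (Eno3) in the 7 genes other than Fbp2. As deviations from each gene's own mean, the 8 genes had a median of 0.50 on non-transgenic replicate 1, where the other arrays were at -0.13, -0.14 and -0.14. After quantile normalization, which gives all arrays 1 distribution, it was 0.032 and 0.078 on the non-transgenic and -0.063 and 0.0023 on the MCK-PPARb arrays. The median difference of the genes was then -0.11, and it was 0.0090 without non-transgenic replicate 1 and -0.072 with both changes. Without non-transgenic replicate 2 it was -0.66, with Aldoa at -0.80 and Pgk1 at -0.87. Pgk1, Pgam2 and Pkm kept both non-transgenic arrays above both MCK-PPARb arrays after quantile normalization. Pfkm had that order then but not as deposited. The share of all genes with that order was counted only on deposited signals (20.8%), so these genes have no background after quantile normalization. Among the quantile-normalized values, Pgk1 on MCK-PPARb replicate 1 was the lowest deviation of all, at -0.39.

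**Figure D3:**
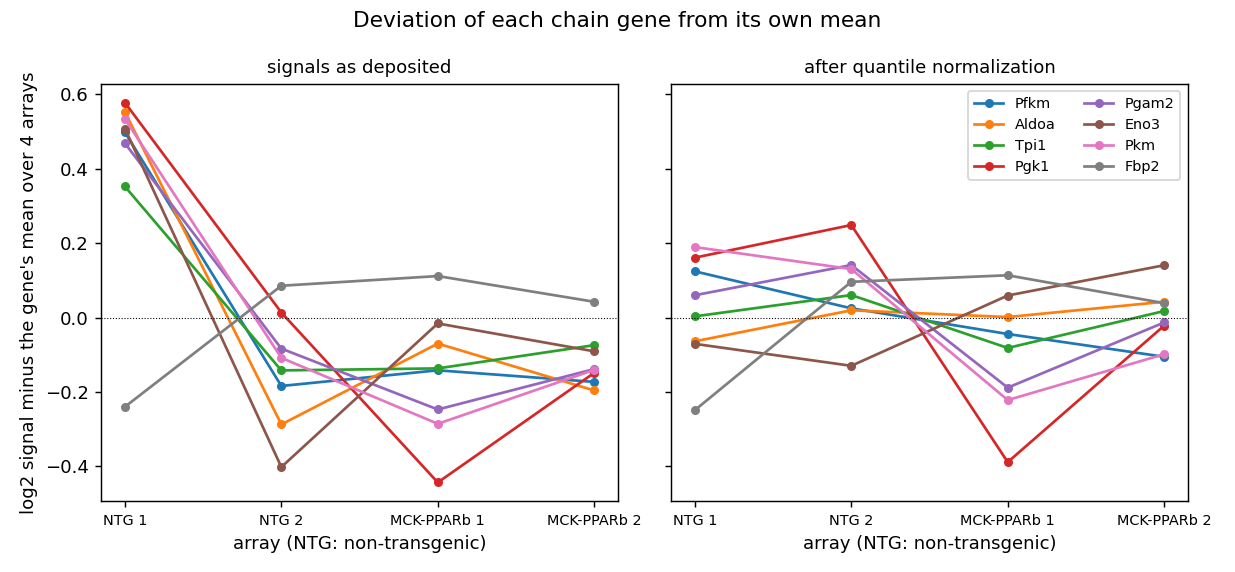
Deviation of the log2 signal from the gene's mean over 4 arrays (y axis) for the 8 measured chain genes (coloured lines) on each array (x axis), with deposited signals on the left and quantile-normalized ones on the right. On the left 7 genes peak on non-transgenic replicate 1, and on the right Pfkm, Pgk1, Pgam2 and Pkm are higher on both non-transgenic arrays than on both MCK-PPARb arrays. The share of all genes with that order after quantile normalization was not counted.

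The 5 skeletal muscle genes taken as tissue markers, none of them glycolytic, had differences of the same sign as most of the chain. Of the 5, 2 turned above 0 with quantile normalization (median then -0.021), and without non-transgenic replicate 1 all 5 were above 0 (median 0.16). As deposited, their differences ran from -0.39 to -0.29 with a median of -0.33, 0 of 5 passed, and non-transgenic replicate 1 exceeded replicate 2 by 1.74-fold to 2.34-fold. Their summed signal was 1254427 and 624524 in controls against 763725 and 645983 in MCK-PPARb muscle. The 5 genes outside the chain whose deviations over the 4 arrays lay nearest to the chain's median profile were Tecr, an enzyme of very long chain fatty acid elongation, Uri1, Zfp410, Arf3, a small GTPase, and Bap1, a deubiquitinase, at Euclidean distances of 0.065 to 0.077 on the log2 scale. Of the chain genes, Pfkm lay at 0.068 from that profile, Pgk1 at 0.34 and Fbp2 at 0.83. This is a description over 4 arrays.

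The tested markers of slow fibres, fat and Schwann cells had differences above 0. All 4 slow muscle markers had differences above 0 (median 1.12, 0 passed), and their summed signal was 34745 and 57024 against 94813 and 111566. Non-transgenic replicate 1 was the lowest array for each of the 4. Their median was 0.83 without it and 1.40 without non-transgenic replicate 2. Myh7, of these 4, read 7611.8 and 17024.5 against 17671 and 18455.5. Of 6 adipocyte markers 2 were above the filter (Adipoq and Retn, median 1.03, 0 passed, sums of 1956 and 2300 against 4131 and 4463). The other 2 on the array lay below the filter and went the other way, Lep at -0.80 (131 and 86.8 against 55.7 and 67.2) and Cidec at -0.47 with overlap. Of 6 Schwann cell markers 3 were tested (median 0.67, 0 passed, sums of 17637 and 19526 against 29780 and 33746). Their median was 0.49 without non-transgenic replicate 1, and the lowest of them was Sox10 at 0.29 (adjusted p = 0.795). Of their probe sets below the filter, 1 of Mbp went the other way without overlap (-1.13), and the rest were above 0. Medians of fibroblast, endothelial and macrophage markers were -0.15, 0.12 and 0.051. No marker was listed at 0, and the part of these cells and fibres in the chain's values was not tested. In whole muscle, fewer fibres of a type and less RNA per fibre cannot be told apart.

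Around the chain, 2 of 31 tested genes of 4 further lists passed, where 0.731% of all genes did. Both lay at the exit of pyruvate and NADH. Without non-transgenic replicate 1 their differences were -2.24 (Gpd2) and 1.76 (Gpt). Genes that bring glucose and glycogen into the chain did not pass, 0 of 8 tested (12 listed, 9 on the array), with a median of -0.21. Pgm1, phosphoglucomutase, which links glycogen to glucose 6-phosphate, read 46601 and 45273 against 28472 and 29151, without overlap (-0.67 ± 0.17, adjusted p = 0.198). Pygm, muscle glycogen phosphorylase, had a difference of -0.58 ± 0.25 (adjusted p = 0.482) with non-transgenic replicate 1 highest, at 158435. It was -0.25 without that array, and without non-transgenic replicate 2 it was -0.92 and passed (adjusted p = 0.0247). Slc2a3, a glucose transporter, had a difference of 0.95 (adjusted p = 0.506) near the filter level, and of 0.51 to 1.40 with 1 array left out. It read 540 and 325 against 1104 and 596. Its non-transgenic mean lay below the filter level, so it entered the test only through the MCK-PPARb arrays.

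Isozymes of the same steps that prevail in other tissues lay at low signals, and 0 of 5 tested passed (11 listed, 9 on the array). Pfkl, the liver phosphofructokinase, read 1387 and 1017 against 1811 and 1396 (0.42 ± 0.28, adjusted p = 0.661, and 0.20 to 0.64 with 1 array left out), and its other probe set had the opposite sign (-0.24). Pgam1, the mutase of brain and most other tissues, was at -0.46 (adjusted p = 0.706) and Gapdhs, the sperm form, at -0.81 ± 0.80 (adjusted p = 0.792). Without MCK-PPARb replicate 1 they were at -0.0094 and 0.57. The MCK-PPARb mean of Gapdhs lay below the filter level, so it entered the test only through the non-transgenic arrays.

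Of 14 tested genes that carry pyruvate, lactate, alanine or NADH out of the chain (18 listed, 16 on the array), 1 rose, 1 fell and 12 did not pass, with a median of -0.40, which was -0.20 without non-transgenic replicate 2. With limma, 8 of the 14 had an unadjusted p under 0.05, against 10.9% of all genes. Groups did not overlap for 8 in the lower direction and 2 in the higher, against 20.8% and 22.2% of all genes. Gpd2, the mitochondrial enzyme that takes up reducing equivalents from glycolysis, read 4692 and 4801 against 1058 and 983 and fell (log2 -2.22 ± 0.21, limma adjusted p = 0.00705). Gpt, an alanine aminotransferase that interconverts pyruvate and alanine, rose 2.96-fold, from 1357 and 1036 to 3535 and 3476 (1.56 ± 0.24, adjusted p = 0.0429). Its adjusted p was 0.131 and 0.163 when MCK-PPARb replicate 1 or 2 was left out and 0.135 with no intensity trend, and its probe set has the suffix _s_at. Gpt2, the mitochondrial alanine aminotransferase, had a difference of the opposite sign in each of its 3 probe sets, -1.09, -1.13 and -1.18, and did not pass (adjusted p = 0.0825 for the representing one). It passed in 5 of 17 alternatives: median centring (adjusted p = 0.0387), the filter at the 75th percentile (0.0481), the replicate block (0.00616), without non-transgenic replicate 2 (0.0283) and the threshold of 0.1.

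Regulators around the chain did not pass, 0 of 4 tested (8 listed, 5 on the array). Bpgm, which diverts 1,3-bisphosphoglycerate beside the Pgk1 step, read 4937 and 3974 against 1632 and 2263, without overlap (-1.20 ± 0.25, adjusted p = 0.107), and its other 2 probe sets gave -1.15 and -1.06. It passed in 1 of 17 alternatives, the replicate block (adjusted p = 0.0115). Hif1a, a factor that drives glycolytic genes in low oxygen, had a difference of 0.75 ± 0.24 (adjusted p = 0.319), and its dimmer probe sets lay below the filter. Minpp1, a phosphatase that also acts on bisphosphoglycerate, read 606 and 288 against 995 and 730 (1.03 ± 0.44, adjusted p = 0.470). Its non-transgenic mean lay below the filter level, so it entered the test only through the MCK-PPARb arrays. The difference was 0.49 without non-transgenic replicate 2 and 1.56 without replicate 1. The other Minpp1 probe set, below the filter, went the other way without overlap (-0.32).

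**Figure D4:**
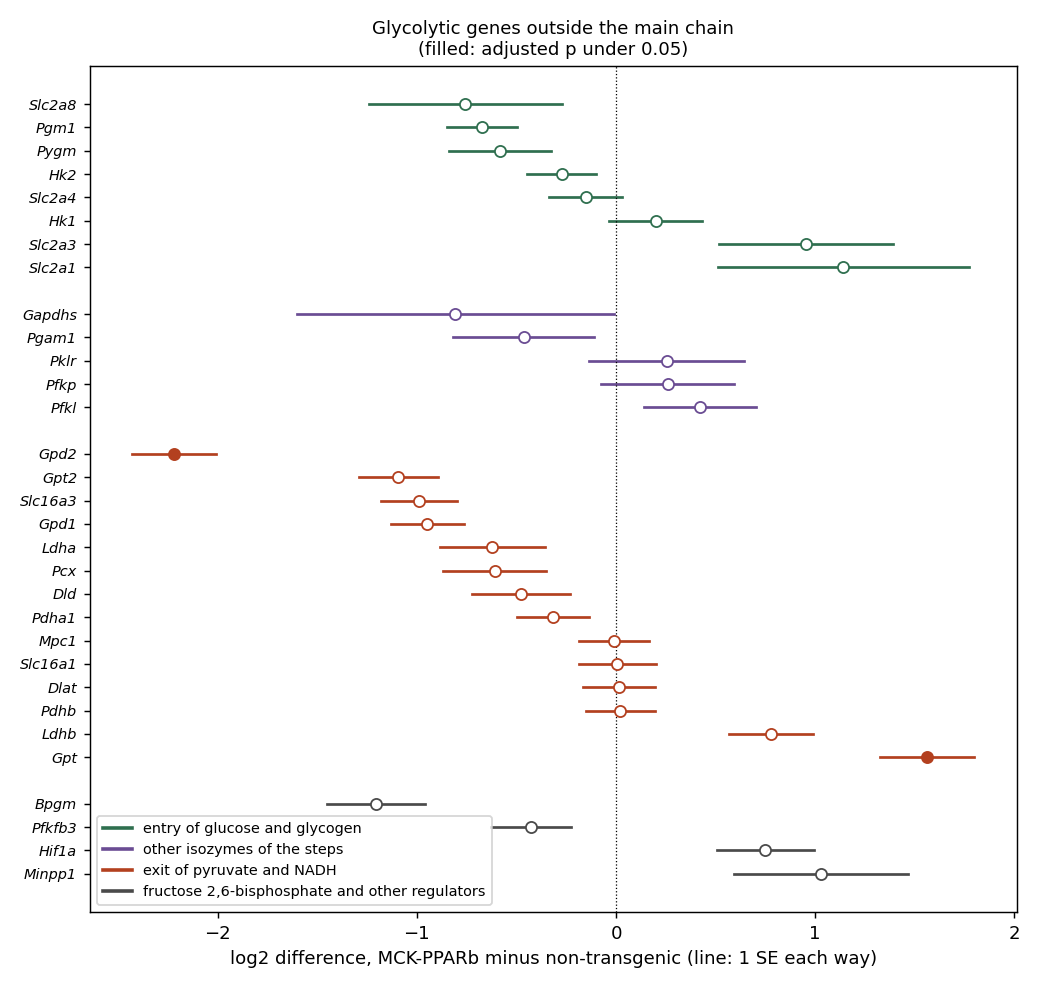
Log2 differences (x axis, MCK-PPARb minus non-transgenic, lines 1 SE each way) of the 31 tested genes of 4 lists around the main chain, coloured by list, with filled points for an adjusted p under 0.05. Only Gpd2 (-2.22) and Gpt (1.56) are filled.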

How the data were processed

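The deposited values are signal intensities, linear and 1 for each probe set on each array. The submitters' processing notes name MAS5 and GCOS without versions. The trimmed mean, leaving out 2% at each end, was 1501 on every array, so the authors had scaled the arrays. Symbols came from the platform annotation, updated by gene number through the gene table of GRCm38.p6. Of 22690 probe sets, 64 controls were left out, 20380 had 1 symbol, 691 several and 1555 were unnamed.

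Signals were put on the log2 scale without a pseudocount, probe sets above the median mean signal were kept (11313), and limma 3.58.1 in R 4.3.3 was fitted (lmFit, eBayes with an intensity trend, two-sided), with Benjamini-Hochberg adjustment over all kept probe sets. Called means an adjusted p under 0.05. The fit was also run on simulated arrays with independent noise for each probe set. These held no shift of a whole array among bright probe sets, such as that of non-transgenic replicate 1. They therefore cannot show how the fit behaves for the chain genes. The members, lists and tests were chosen with earlier results of these data known. Named genes outside the chain are those called in the 4 lists and the 3 of smallest p in each, plus the 5 nearest in profile. Alternatives were quantile, median and cyclic loess scaling, a pseudocount of 100, other filters, other variance priors, a replicate block, leaving out arrays, an adjusted p under 0.1, leaving out _s_at and _x_at probe sets, and averaging the probe sets of each gene. The AGGTCA motif was added after the values were seen.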

Additional observations from a re-analysis of the deposited data

How the results depend on the processing

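Of the 8 chain genes, 0 passed as reported and in 16 of 17 alternatives. The exception left out non-transgenic replicate 2, where a lone array stood for its group, with Aldoa at -0.80 and Pgk1 at -0.87. The median difference of the 8 genes, -0.29 as reported, ran from -0.66 to 0.0090 when 1 array was left out. In the other alternatives it ran from -0.40 with median centring to -0.072 with quantile normalization and no non-transgenic replicate 1. The move to -0.66, without non-transgenic replicate 2, exceeded 1 replicate SD (0.31), and the other moves lay within it. That SD came almost wholly from the gap between the 2 non-transgenic arrays, so it is a wide yardstick. Signs turned with quantile normalization for Aldoa (0.044) and Eno3 (0.20), without non-transgenic replicate 1 for Pfkm (0.027), Aldoa (0.15), Tpi1 (0.037), Eno3 (0.35) and Fbp2 (-0.0085), and with both for Aldoa (0.0073), Eno3 (0.20) and Fbp2 (-0.020). Pgk1, Pgam2 and Pkm kept theirs in all alternatives. With each array left out in turn, Pfkm ran from -0.66 to 0.027, Aldoa from -0.80 to 0.15, Tpi1 from -0.46 to 0.037, Eno3 from -0.56 to 0.35 and Fbp2 from -0.0085 to 0.32. The causes were not tested.

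Over all genes, 68 probe sets were called as reported, 116 with median centring, 21 without the intensity trend, 150 at an adjusted p under 0.1 and 45 to 194 with 1 array left out. Median centring shifted the median of all genes by -0.11 and split the calls 48 higher to 68 lower, against 38 to 30. Of the genes around the chain, 2 were called as reported, 1 without the trend or without _s_at and _x_at probe sets, 5 at an adjusted p under 0.1 and 1 to 6 with 1 array left out. Arrays that share a replicate number share only that number as far as the labels say, and their deviations correlated at 0.28. With the replicate number as a block, 377 probe sets and 7 genes around the chain were called, and 0 chain genes. Leaving out an array assumes that the lone array varies like the other group.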
